A study of Homo sapiens with 4 samples.

Results

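The genes described here encode receptors by which phagocytes sense attractants other than chemokines: the anaphylatoxin receptors C5AR1, C5AR2 and C3AR1, the formyl peptide receptors FPR1, FPR2 and FPR3, the leukotriene B4 receptors LTB4R and LTB4R2, the platelet-activating factor receptor PTAFR and the chemerin receptor CMKLR1. They were chosen by gene symbol in the deposited table of array values, and 8 of the 10 listed symbols had a feature of that name, 1 each, among 17687 genes. LTB4R and LTB4R2 were not analysed here. The family itself was selected on earlier results of these data, the changes between the groups, in which C5AR1 and FPR2 stood among the largest rises. The values, intervals and calls of its members are thus given as a description that supports nothing further. No p-value is printed for the called members. For members not called, the adjusted p is printed only to show where they lay against the threshold.

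Expression was measured on 4 Affymetrix arrays of total RNA from NB4-R4 cells, an acute promyelocytic leukaemia line described as resistant to all-trans retinoic acid (ATRA), the drug that normally makes NB4 cells mature. The control group was NB4-R4 treated with the vehicle DMSO for 96 h (2 arrays), and the treated group was NB4-R4 given MK-8776, an inhibitor of the checkpoint kinase CHK1, at 4 µM for 96 h (2 arrays). Both groups are thus a single ATRA-resistant subclone of 1 cell line grown in the same medium. The labels name the arrays of a group biological replicates without saying how the cultures came about. A p-value here reflects the spread within these 4 samples, in part borrowed from all genes, and that spread may be partly technical. Values are RMA expression on the log2 scale. Such values depend on the probes of each feature, so a gene is compared between arrays and genes are not ranked by level. Where a value is set beside the median or lower quartile of all values, this places it within the range of the arrays only.

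Chemoattractant receptors of this family are G protein-coupled receptors that pass their signal mainly through inhibitory G proteins to phospholipase C beta, PI3 kinase gamma and Rac, and so direct migration, degranulation and the oxidative burst. Anaphylatoxins are fragments released from complement C3 and C5, formyl peptides come from bacteria and damaged mitochondria, and leukotriene B4 and platelet-activating factor are lipids made at the site of inflammation. Several of these receptors are absent or scarce on immature promyelocytes and appear as myeloid cells mature to neutrophils or monocytes.

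The anaphylatoxin receptor genes C5AR1 and C5AR2 are neighbours on chromosome 19 (GRCh38.p14), C5AR1 from 47307477 to 47322066 and C5AR2 from 47332175 to 47347329, with 10.1 kb between them. FPR1 (51745172 to 51751878), FPR2 (51761180 to 51770531) and FPR3 (51795157 to 51826190) form a second group on the same chromosome, with 9.3 kb and 24.6 kb between them. C3AR1 lies on chromosome 12 (8056844 to 8066359), as does CMKLR1 (108288046 to 108339311), and PTAFR lies on chromosome 1 (28147166 to 28193856). The RefSeq promoter table held an entry for 7 of the 8 measured genes and none for FPR3. The 250 bases before the start site are shown for C5AR1, FPR1 and FPR2, whose expression moved most between the groups, and for C5AR2, the neighbour of C5AR1. They are RefSeq sequence of build GRCh38.p14, written 5′ to 3′ on the strand of the gene, with matches to the searched motifs in capitals. The C5AR1 stretch is chr19:47309611-47309860 (plus strand), inside the annotated span of the gene, the C5AR2 stretch chr19:47331925-47332174 (plus), the FPR1 stretch chr19:51751879-51752128 (minus) and the FPR2 stretch chr19:51760930-51761179 (plus).
C5AR1: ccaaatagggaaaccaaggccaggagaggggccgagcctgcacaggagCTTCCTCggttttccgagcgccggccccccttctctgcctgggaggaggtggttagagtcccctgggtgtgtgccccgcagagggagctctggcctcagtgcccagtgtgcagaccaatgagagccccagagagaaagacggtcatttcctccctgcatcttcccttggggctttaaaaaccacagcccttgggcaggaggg
C5AR2: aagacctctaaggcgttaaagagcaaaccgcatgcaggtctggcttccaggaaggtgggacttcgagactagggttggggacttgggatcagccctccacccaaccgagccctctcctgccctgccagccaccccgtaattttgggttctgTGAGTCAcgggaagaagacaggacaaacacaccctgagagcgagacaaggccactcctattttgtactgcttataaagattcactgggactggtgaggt
FPR1: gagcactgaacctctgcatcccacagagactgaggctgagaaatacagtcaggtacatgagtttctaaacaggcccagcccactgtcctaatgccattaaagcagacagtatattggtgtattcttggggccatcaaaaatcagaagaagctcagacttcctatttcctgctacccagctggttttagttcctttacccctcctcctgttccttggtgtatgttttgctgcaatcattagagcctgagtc
FPR2: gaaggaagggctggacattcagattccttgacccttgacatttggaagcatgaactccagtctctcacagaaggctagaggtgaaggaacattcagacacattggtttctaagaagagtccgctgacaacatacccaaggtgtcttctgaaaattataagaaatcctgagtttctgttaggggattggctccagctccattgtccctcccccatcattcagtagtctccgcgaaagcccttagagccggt
In C5AR1 the capitals mark a match to the PU.1 motif GAGGAAG on the opposite strand, 202 to 196 bases before the start, and in C5AR2 a match to the AP-1 motif TGANTCA, 99 to 93 bases before it.

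The search covered 5 motifs on both strands in the 250 bases before each start. The AP-1 motif TGANTCA was present in 6.57% of the 35114 promoter entries searched, the PU.1 motif GAGGAAG in 11.25%, the C/EBP motif TTGCNNAA in 9.05%, the antioxidant response element TGACNNNGC in 10.91% and the E-box CACGTG, which TFEB reads, in 6.35%. The AP-1 and antioxidant motifs begin with the same letters, so a stretch can match both. Outside C5AR1, matches were found in C3AR1 (TGACTCA, 133 to 127 bases before the start), PTAFR (TGAGTCA, 51 to 45 bases before its start at 28193856), C5AR2 and CMKLR1 (GAGGAAG, 30 to 24 bases before the start). A second start of C5AR2 at 47337095 had a PU.1 match and an antioxidant match. FPR1 and both starts listed for FPR2 held none of these letters in the window. The 3 receptor genes that passed the test of expression below shared no searched motif here. Each motif was in at most 11.25% of entries, so any 3 genes would seldom share one, and nothing is concluded from this.

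After MK-8776 the transcripts of C5AR1, FPR2 and FPR1 rose, those of C3AR1, CMKLR1 and PTAFR were higher on both treated arrays without passing the threshold, and C5AR2 and FPR3 were not higher. A limma fit across all genes with Benjamini-Hochberg adjustment and a threshold of 0.05 called 3 of the 8 receptor genes, all upward, where 1.66% of all genes were called upward, 2.02% downward and 3.69% in either direction. The median change of the 8 was 1.125 on the log2 scale, against 0.005 over all genes. Both treated arrays lay above both control arrays in 6 of the 8, against 24% of all genes, and below them in 1 (FPR3), against 24.2%. Since the family was assembled with C5AR1 and FPR2 known, these counts describe it and support no more than that. RNA came from whole cultures, so more cells that express a gene and more RNA per cell cannot be told apart. The 3 calls rest on the number of arrays: 0 of the 8 passed without DMSO replicate 1 or without DMSO replicate 2 (0 of all genes passed in either fit, with 2620 and 1815 at an unadjusted p under 0.05), 2 (C5AR1 and FPR2) without MK-8776 replicate 1, and 3 when its replicate 2 was the one left out.

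**Figure D1:**
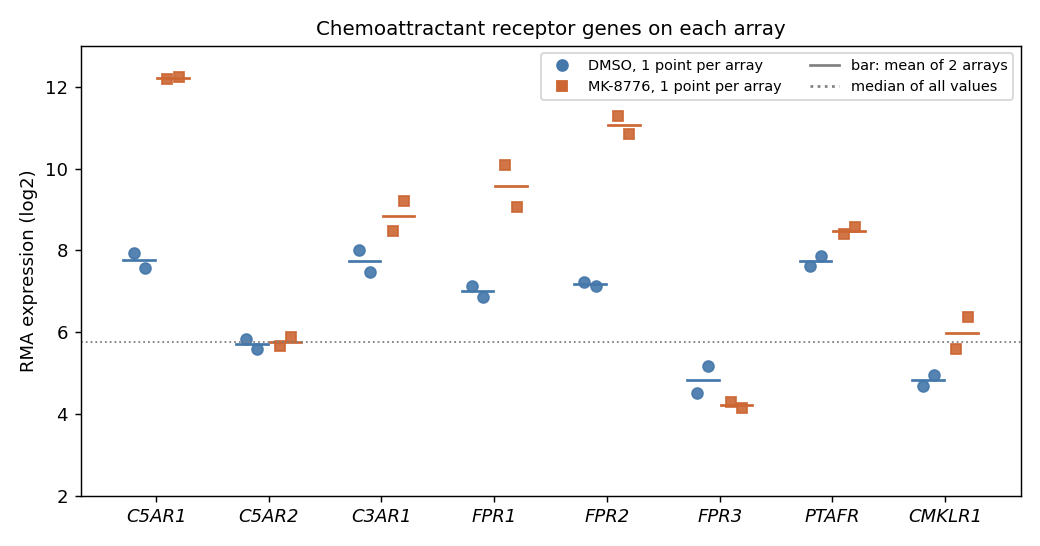
RMA expression (log2) of the 8 receptor genes on each array, circles for DMSO and squares for MK-8776, with a bar at the mean of 2 arrays and a dotted line at the median of all values on the arrays (5.77). C5AR1, FPR2 and FPR1 have the widest gaps between the groups, and the points of C5AR2 overlap. Heights of different genes are not comparable.

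C5AR1 encodes the main signalling receptor for the complement fragment C5a (feature TC1900011770.hg.1). It measured 7.94 and 7.57 on the DMSO arrays and 12.19 and 12.23 on the MK-8776 arrays. The treated arrays differed from each other by far less than from the controls, and the groups did not overlap. The change was 4.455 on the log2 scale (SE 0.22, 95% interval 3.95 to 4.96, n = 2 arrays per group), which is 21.9-fold, the rank 3 rise among all genes. It ranged from 4.27 to 4.64 when any 1 array was left out.

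C5AR2 encodes a second receptor that binds C5a but does not couple to G proteins in the usual way (feature TC1900008419.hg.1). Its arrays read 5.82 and 5.58 in DMSO and 5.66 and 5.87 in MK-8776. The groups overlapped, with 1 treated array between the control arrays. Its change was 0.065 (SE 0.22, limma adjusted p = 0.917) with a 95% interval from -0.43 to 0.56. Its sign turned when either replicate 2 was left out (range -0.06 to 0.18 over the 4 arrays left out).

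C3AR1 encodes the receptor for the fragment C3a (feature TC1200009807.hg.1). It read 8.0 and 7.47 in DMSO and 8.47 and 9.21 in MK-8776. Both treated arrays were above both controls, but the arrays of each group lay apart, and the residual SD of 0.455 was larger than that of 92.8% of genes. The change of 1.105 (SE 0.30, 2.15-fold) did not pass (limma adjusted p = 0.0910, from 0.0501 with a variance trend to 0.219 in the test against a fold of 1.2). It was 0.73 without MK-8776 replicate 2, and ran up to 1.48 when other arrays were left out.

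FPR1 encodes the high-affinity receptor for bacterial formyl peptides (feature TC1900011271.hg.1). It measured 7.13 and 6.86 in DMSO and 10.09 and 9.06 in MK-8776. Every treated array stood above every control, and the treated arrays lay about 1 log2 unit apart. It rose by 2.58 (SE 0.33, 95% interval 1.825 to 3.335), or 5.98-fold, the rank 25 rise among all genes. Since the family was chosen on such changes, its call is a description too, and no p-value is printed for a called member. The call was lost without DMSO replicate 1, DMSO replicate 2 or MK-8776 replicate 1. It was kept without MK-8776 replicate 2, and the change ran from 2.06 to 3.10 over these fits.

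FPR2 encodes a receptor of wide range that binds formyl peptides, serum amyloid A, the peptide LL-37 and annexin A1 (feature TC1900008668.hg.1). It read 7.23 and 7.12 in DMSO against 11.28 and 10.84 in MK-8776. The control arrays nearly coincided and the groups lay far apart. The change was 3.885 (SE 0.23, 95% interval 3.36 to 4.41, n = 2 per group), or 14.8-fold, the rank 11 rise.

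FPR3, the third gene of the cluster, encodes a receptor known mainly from monocytes, macrophages and dendritic cells (feature TC1900008669.hg.1). Its arrays read 4.50 and 5.16 in DMSO and 4.30 and 4.14 in MK-8776. Both treated arrays were lower than both controls, and the control arrays differed from each other more than the lower control did from the treated arrays. The change of -0.61 (SE 0.26) did not pass (limma adjusted p = 0.256), and it was -0.94 without DMSO replicate 1 and -0.28 without DMSO replicate 2. All its values lay under the median of all array values (5.77).

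PTAFR encodes the receptor for platelet-activating factor (feature TC0100013471.hg.1). It measured 7.62 and 7.85 in DMSO and 8.39 and 8.56 in MK-8776. The groups did not overlap and the arrays within each lay close, with a residual SD of 0.143. The change was 0.74 (SE 0.21, 1.67-fold, limma adjusted p = 0.106), which did not pass.

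CMKLR1 encodes the signalling receptor for chemerin (feature TC1200011838.hg.1). It read 4.69 and 4.96 in DMSO and 5.58 and 6.36 in MK-8776. Both treated arrays were above the controls, and the DMSO values lay under the median of all array values. The change of 1.145 (SE 0.29, 2.21-fold) missed the threshold (limma adjusted p = 0.0711, from 0.0523 to 0.169 under other settings of the fit with all arrays). It was 0.75 without MK-8776 replicate 2, and ran up to 1.53 when other arrays were left out.

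**Figure D2:**
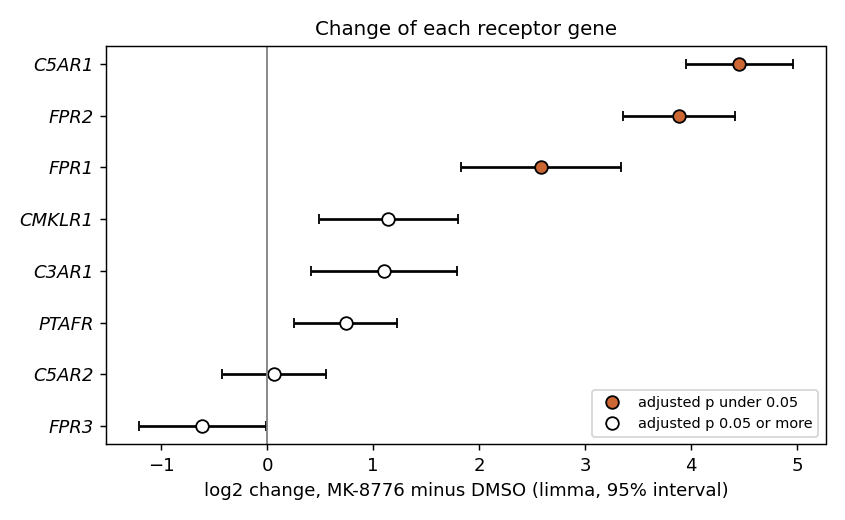
Change of each receptor gene on the log2 scale, MK-8776 minus DMSO, with the 95% interval of the limma fit (2 arrays per group). Filled points passed the adjusted threshold of 0.05. C5AR1, FPR2 and FPR1 lie at 4.455, 3.885 and 2.58, CMKLR1, C3AR1 and PTAFR between 0.74 and 1.145, C5AR2 at 0.065 and FPR3 at -0.61.

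To set the changes of related receptors side by side, the value of one gene was subtracted from that of its relative within each array. C5AR1 minus C5AR2 was 2.12 and 1.99 in DMSO and 6.53 and 6.36 in MK-8776, a difference in change of 4.39. C5AR1 minus C3AR1 was -0.06 and 0.10 in DMSO and 3.72 and 3.02 in MK-8776, a difference of 3.35. Both anaphylatoxin pairs thus separated the groups with a gap far wider than the spread within either. FPR2 minus FPR1 was 0.10 and 0.26 in DMSO and 1.19 and 1.78 in MK-8776, a difference of 1.305. FPR2 minus FPR3 rose by 4.495 between the groups and FPR1 minus FPR3 by 3.19, again with no overlap. The exact two-sided permutation test gave p = 0.333 for each of the 5 pairs, the smallest p that it can give with 2 arrays against 2, so it cannot pass here. No other test of these differences was run, and C5AR1 and FPR2 were known beforehand. The difference between FPR2 and FPR1 ranged from 1.01 to 1.60 when any 1 array was left out.

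**Figure D3:**
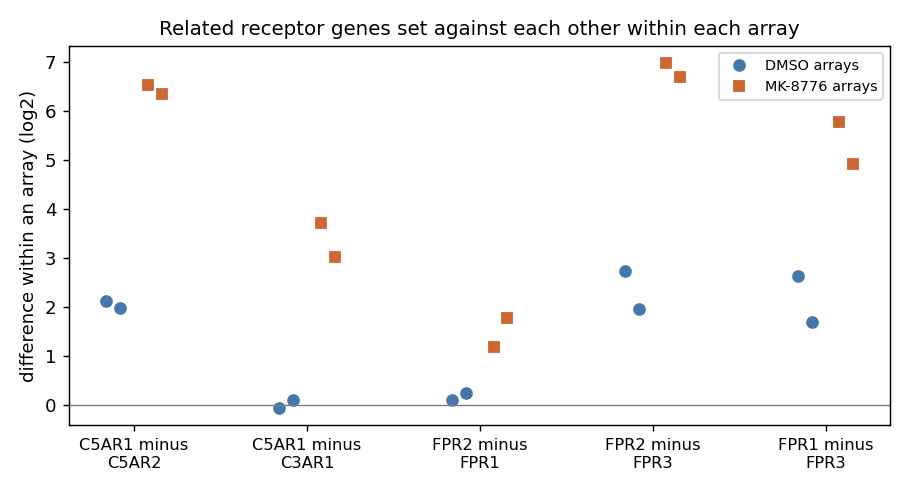
Difference between the log2 values of 2 related receptor genes within each array, circles for DMSO and squares for MK-8776. In all 5 pairs both treated arrays lie above both control arrays, by a gap of 0.93 for FPR2 minus FPR1 and of 4.24 for C5AR1 minus C5AR2.

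Of the 12 measured genes that flank the 2 receptor groups on chromosome 19, 1 passed the threshold, where 3.69% of all genes did. Of the 3 measured genes on each side of C5AR1 and C5AR2, 0 passed in the limma fit, and their changes ran from -0.625 for CCDC9 to 0.135 for SAE1. Around the FPR genes, the zinc finger gene ZNF613 had a change of 0.94 at the edge of the threshold (limma adjusted p = 0.0490), a call lost with all features tested (0.0591), a variance trend (0.0527, or 0.0502 robust), the replicate block (0.0842), the test against a fold of 1.2 (0.141) or any 1 array left out (0.146 to 0.414). The other 5 ran from -0.51 for ZNF577, which overlaps FPR3 on the map, to 0.485 for ZNF649 without passing. The changes of C5AR1, FPR1 and FPR2 were larger than that of any of these 12 genes. The family was chosen on such changes, with C5AR1 and FPR2 known, so this order was set beforehand and is no result about the loci.

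**Figure D4:**
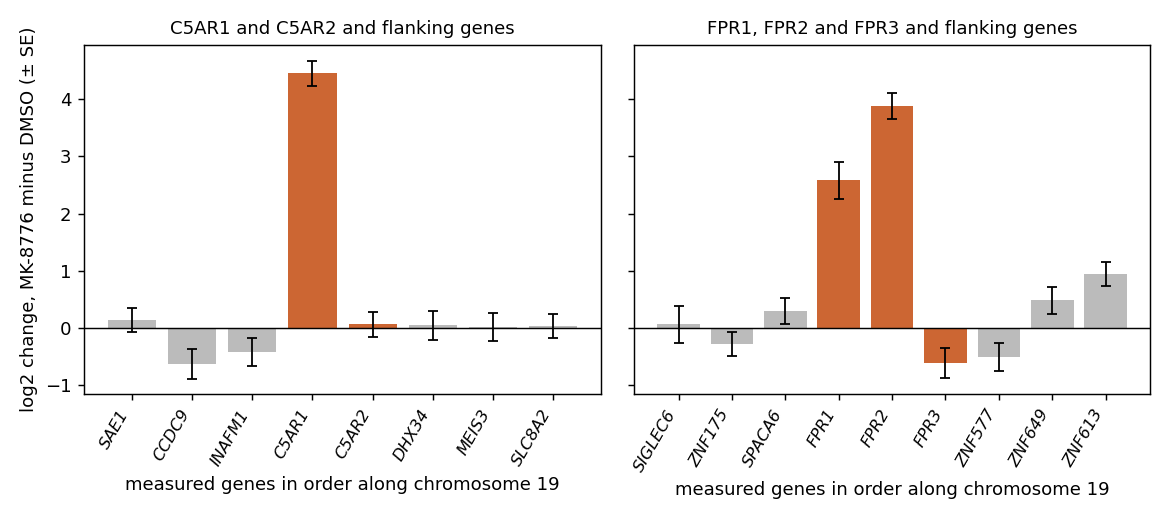
Log2 change (± SE) of the receptor genes (coloured bars) and of the 3 nearest measured genes on each side (grey), in their order along chromosome 19 and not to scale. C5AR1 stands at 4.455 beside C5AR2 at 0.065, and FPR1 and FPR2 at 2.58 and 3.885 beside FPR3 at -0.61.

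Of 33 listed genes that make or remove the ligands of these receptors, 31 were measured, of which 3 rose, 1 fell and 27 did not pass, a share of 12.9% called against 3.69% of all genes, with a median change of 0.115. C3, the precursor of C3a, read 8.77 and 8.35 in DMSO and 10.70 and 11.41 in MK-8776 and rose by 2.495 (SE 0.29, limma adjusted p = 0.00595), while C5, the precursor of C5a, had a change of -0.305 that did not pass (adjusted p = 0.563). ALOX5AP, which presents arachidonic acid to 5-lipoxygenase in leukotriene synthesis, rose by 1.40, from 12.48 and 12.22 to 13.74 and 13.76 (adjusted p = 0.0138, limma). ANXA1, which encodes the FPR2 ligand annexin A1, rose by 1.05, from 11.48 and 11.43 to 12.71 and 12.30 (adjusted p = 0.0437, limma). The ANXA1 call was lost after quantile normalization (0.0508), with all features tested (0.0534), with the replicate block (0.0761) and in the test against a fold of 1.2 (0.116). CTSG, a granule protease that is itself an attractant through formyl peptide receptors, fell by 2.2, from 8.56 and 8.50 to 6.61 and 6.05 (adjusted p = 0.00516, limma). Enzymes that follow in the leukotriene B4 route gave no call, with ALOX5 at -0.115 and LTA4H at -0.805 (adjusted p = 0.888 and 0.112, limma). RARRES2, which encodes chemerin, was at -0.415, and LPCAT2, which makes platelet-activating factor, at 0.10, neither past the threshold. In the limma fits that left out 1 array, 0 of the 31 genes passed.

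Signalling genes behind the receptors were mostly not called. Of 40 listed, 36 were measured, of which 0 rose, 1 fell and 35 did not pass. The share called was 2.78% against 3.69% of all genes, and the median change was 0.083. In the limma fit 11 of the 36 had an unadjusted p under 0.05, as did 3331 of all 17687 genes. The gene that fell was GRK5, a kinase that phosphorylates active receptors and so ends their signal, from 5.98 and 5.82 to 4.74 and 4.76, a change of -1.15 (SE 0.20, limma adjusted p = 0.0247). That call was lost with the replicate block (0.0595), in the test against a fold of 1.2 (0.0603) and whenever 1 array was left out (0.131 to 0.365). PIK3R5, the regulatory subunit that ties PI3 kinase gamma to such receptors, stood at 1.135 just outside the threshold (adjusted p = 0.0516, limma). The inhibitory G protein gene GNAI2 was at 0.365 and the PI3 kinase gamma gene PIK3CG at -0.135, neither past it.

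Among 20 other chemoattractant receptor genes, all measured, 3 rose, 0 fell and 17 did not pass. The share called was 15%, against 3.69% of all genes in either direction and 1.66% upward, and the median change was 0.325. Like the lists before it, this one was chosen with earlier results of these data known. Its share, calls and p-values, like theirs, are a description only. GPR183, the oxysterol receptor, rose by 3.44, from 6.23 and 6.20 to 9.94 and 9.37 (SE 0.24, limma adjusted p = 0.00072). GPR84, a receptor for medium-chain fatty acids, rose by 1.81, from 6.04 and 5.82 to 7.63 and 7.85 (adjusted p = 0.00644, limma), and LPAR6, a receptor for lysophosphatidic acid, by 1.25, from 8.06 and 8.31 to 9.27 and 9.60 (adjusted p = 0.0253, limma, 0.0595 in the test against a fold of 1.2). The interleukin 8 receptor genes CXCR1 and CXCR2 did not pass, at 0.60 and 0.09. CXCR1 read 3.31 and 3.10 in DMSO and 3.32 and 4.29 in MK-8776, all but the last under the lower quartile of all values (3.97). The further chemerin-binding receptors CMKLR2 and CCRL2 were at 0.47 and 0.355, also short of the threshold (adjusted p = 0.274 and 0.547, limma). The DMSO values of CMKLR2, 3.69 and 3.86, lay under that quartile too. The calls of GPR84 and LPAR6 were lost whenever 1 array was left out, and that of GPR183 was lost without DMSO replicate 1 (0.214), DMSO replicate 2 (0.314) or MK-8776 replicate 1 (0.0542).

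**Figure D5:**
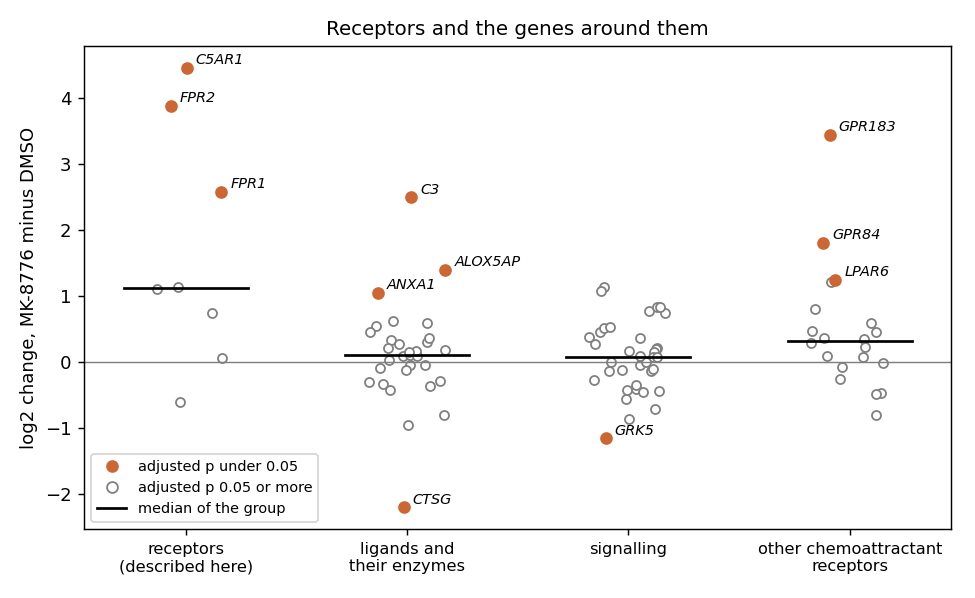
Log2 change, MK-8776 minus DMSO, of each receptor gene described here and of each gene in the 3 surrounding lists, filled where the adjusted p was under 0.05, with a line at each group's median. The medians are 1.125 for the receptors, 0.115 for ligands and their enzymes, 0.083 for signalling genes and 0.325 for other chemoattractant receptors.

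The genes whose 4 values followed C5AR1 most closely, by the root mean square difference after each gene's mean was removed, were S100A8 (0.091), VNN2 (0.099), CCL2 (0.268), FPR2 (0.344) and AQP9 (0.383). For FPR2 they were GPR183 (0.229), VNN2 (0.249), S100A8 (0.266), GPAT3 (0.294) and PLIN2 (0.298). With 4 arrays in 2 groups such likeness mainly reflects the size of the change, from 3.33 for GPAT3 to 4.315 for VNN2.

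Cell type markers were read beside these receptors. Of 8 measured promyelocyte markers, MPO, the myeloperoxidase gene, read 16.09 and 16.27 in DMSO and 14.81 and 15.36 in MK-8776, while KIT, at 3.86 and 3.69 in DMSO, was below the lower quartile of all values on every array. Among the 8, 3 fell (CTSG, PRTN3 and PRSS57) and 0 rose, a share of 37.5% called against 3.69% of all genes. The mean level of the 8 went from 8.12 and 8.70 to 7.0 and 7.48. CTSG was already counted among the ligand genes above, so its fall is the same observation. CFD, MME, CXCR1 and CXCR2 also stand both in a marker list and in a list above. Of 12 mature neutrophil genes (8.33% called) only MMP9 passed, with a rise of 2.83 (adjusted p = 0.00221, limma). The mean level was 5.09 on both DMSO arrays against 5.32 and 5.45, and it includes the rise of MMP9. The median change of the 12 was 0.095, with 9 changes positive and 3 negative. Of the 12, 4, such as FCGR3B and ALPL, were under the lower quartile of all values on every array. Of 11 monocyte and macrophage genes (27.3% called) CD14 and C1QA rose and FCGR1A fell, 2 of the 11 lay under that quartile on every array, and the list had mean levels from 6.03 to 6.17 in DMSO and from 6.06 to 6.22 in MK-8776. Lymphoid markers gave 1 rise (NKG7) and 1 fall (CD3E) of 7, and erythroid and platelet markers 1 rise (PPBP) and 1 fall (ITGA2B) of 7, or 28.6% called in each list, with 2 and 1 genes under that quartile throughout. Each of these marker calls was lost in every fit without 1 array, except FCGR1A when MK-8776 replicate 2 was left out, and the replicate block ended those of CD14, C1QA, NKG7, CD3E, PPBP and PRSS57. The CD14 call was also lost with all features tested (0.0599), after quantile normalization (0.0599) and in the test against a fold of 1.2 (0.104), which ended those of NKG7 (0.0759), CD3E (0.0574) and PRSS57 (0.0734) too. The part of these shifts in the receptor results was not tested.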

How the data were processed

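Total RNA of 2 DMSO and 2 MK-8776 samples was measured on 4 arrays. The authors deposited log2 expression values made with RMA and genome build hg38, per the submitters' processing notes. The log2 scale was inferred from the range of the values, 2.16 to 18.54, and a variant of RMA with another scale would change the folds. RMA's version, its settings and any filter were not given in the sources used here. No detection call or batch was used. Precision is limited by the number of arrays, and because RMA equalises their distributions, changes are relative to other genes.

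Of 21448 features 17709 had 1 symbol, 0 had several and 3739 had none, and all 17709 matched a RefSeq gene table (GRCh38.p14) by gene number. For 20 genes with over 1 feature that with the highest mean was used, leaving 17687 genes. The fit was limma 3.58.1 under R 4.3.3 (lmFit, then eBayes), two-sided and unfiltered, with 2 residual degrees of freedom and 6.298 borrowed, and p-values were adjusted over all genes by Benjamini-Hochberg at 0.05. The fit was also run on simulated data with independent noise drawn from its own variance model. That run does not bear on arrays that are technical replicates. Members, lists and motifs were chosen with earlier results of these data known. The calls and p-values of list and marker genes are thus a description. Named are all members, the called genes of each list and marker set, and the 5 genes most like C5AR1 and FPR2. ALOX5, LTA4H, C5, RARRES2, LPCAT2, PIK3R5, GNAI2, PIK3CG, CXCR1, CXCR2, CMKLR2, CCRL2, MPO, KIT, FCGR3B, ALPL and the flanking genes were named for their role or place after their values were seen. The alternatives tried were quantile normalization, median centring, dropping genes below the median level, a variance trend (also robust), the replicate number as a block, testing every feature, testing against a minimum fold of 1.2, and leaving out each array.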

Additional observations from a re-analysis of the deposited data

How the results depend on the processing

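With all arrays in the fit, each of the 8 receptor genes kept its direction and its side of the threshold under every alternative in which it was tested (C5AR2, CMKLR1 and FPR3 were not among genes above the median level), and 3 receptors passed in each. Another feature for a gene could not be tried, since each receptor had 1. The count over all genes, 652, was 981 among genes above the median level, 1185 with a variance trend, 1162 with that trend and robust estimation, 288 in the test against a fold of 1.2 and 309 with the replicate block. The signalling list, with 1 call, had 2 after quantile normalization or median centring, 4 with a variance trend with or without robust estimation, and 0 with the replicate block or the test against a fold of 1.2.

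Leaving out 1 array gave 0 to 34 calls over all genes, 0 to 3 among the receptors, 0 among ligands and their enzymes, 0 in signalling and 0 to 1 among other chemoattractant receptors. Changes then ran from 4.27 to 4.64 for C5AR1, 3.67 to 4.11 for FPR2, 2.06 to 3.1 for FPR1, and -0.06 to 0.18 for C5AR2, the only receptor whose sign turned. These fits keep 1 residual degree of freedom per gene, and the lone array of a group is assumed to vary like the other group. Replicate numbers 1 and 2 occur in both groups, tied by the labels to nothing shared; deviations of same-numbered arrays correlated at 0.1393 across genes, and the replicate block changed no receptor's call. Centring each array on its median moved the median change of all genes from 0.005 to 0.055.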
